A study of Mus musculus with 4 samples.

Results

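The genes described here are 34 genes of glycolysis and of the response to low oxygen, followed in mouse embryonic stem (ES) cells with and without knockdown of Atad2, a gene for a bromodomain protein of chromatin. They were taken as a fixed list of gene symbols, 24 of glucose uptake, glycolysis and the fate of pyruvate and 10 of the hypoxia response, out of 21562 genes that could be named in the RNA-seq tables. All 34 were found, and all 34 had a mean level over the 4 libraries of at least 1 FPKM (fragments scaled to the length of the transcript and to the number of fragments mapped in the library), the minimum for testing, as had 11094 genes in all.

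The cells were of the 46C ES line, grown with serum and LIF, and all 4 libraries came from a chosen clone with a TAP tag knocked in at the end of Atad2, so the controls were tagged cells too. There were 2 libraries of cells given a scrambled siRNA (si-ctrl 1 and 2) and 2 of cells given an anti-Atad2 siRNA (si-Atad2 1 and 2). Libraries of one number were quantified together by the authors and are treated here as pair 1 and pair 2. According to the study, active anti-Atad2 siRNAs of more than one sequence and an inactive siRNA were used, and the RNA of each treatment was put through sequencing more than once. The labels tie no siRNA to a library and name no separate cultures, so the si-ctrl libraries may be repeats of 1 RNA sample, and p-values then measure only the spread between these libraries, which may be technical. An exact two-sided permutation test of 2 libraries against 2 cannot give a p under 0.333.

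Glycolysis splits glucose into pyruvate in a chain of cytosolic steps, several of which are served by more than one isozyme, and cells that pass pyruvate on to lactate instead of to the mitochondria depend on it for much of their ATP. ES cells kept in serum and LIF are known for active glycolysis. In low oxygen the factor HIF-1, whose alpha subunit is encoded by Hif1a, escapes hydroxylation by the Egln enzymes and degradation, binds a short element with the core ACGTG or GCGTG, and raises glucose transporters, many glycolytic enzymes and genes such as Vegfa, Bnip3 and Ankrd37.

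Atad2 itself stood at 34.1 FPKM in si-ctrl 1 and 10.1 in si-Atad2 1, and at 36.0 and 13.0 in pair 2. Its level fell by 1.53 on the log2(FPKM + 1) scale (SE 0.077, limma adjusted p = 5.42e-05), which left 29.6% and 36.2% of the control level. Of the 10 ES cell markers looked for, 9 were listed, each at 1 FPKM or more. Their summed level was 3222 FPKM in si-ctrl 1, 3084 in si-Atad2 1, 3237 in si-ctrl 2 and 3027 in si-Atad2 2, lower in both si-Atad2 libraries. In both pairs 7 of the 9 genes were lower, beside 34.1% of all genes tested. All listed markers but Tfcp2l1 exceeded 100 FPKM in the si-ctrl libraries, and 61.7% of all genes of such a level were lower in both pairs. Sox2 was higher in both pairs (190 to 200 and 197 to 198 FPKM) and Tdgf1 in pair 1 alone. The part of the lower summed marker level in the ratios of the 34 genes was not tested. The markers of fibroblasts summed to 7.28 to 8.77 FPKM, those of primitive endoderm to 6.02 to 6.75, those of mesoderm and neural cells to 8.01 to 8.53 and those of trophoblast to 2.58 to 2.97. The tables give no read counts, so the depth of the libraries is not known here. In bulk RNA such as this, fewer cells of a type and less RNA per cell cannot be told apart.

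None of the 34 genes passed the test of si-Atad2 against si-ctrl (limma, Benjamini-Hochberg adjusted p under 0.05 over all genes), where 1.38% of all genes tested did so (1.09% higher and 0.288% lower). The adjusted p-values of the 34 genes ran from 0.106 to 0.959. Before adjustment 7 had a limma p under 0.05, 2 on the higher side (Pgam1 and Ankrd37) and 5 on the lower side (Pfkm, Pfkp, Pfkfb3, Vegfa and Hif1a), beside 15.5% of all genes. None had a mean ratio beyond 1.5-fold. The count of 0 held under each other setting except 2 fits in which 1 library was left out: 3 genes passed without si-Atad2 1 (Egln3, Pfkm and Pgam1) and 6 without si-Atad2 2 (Ankrd37, Hk2, Pfkfb3, Pfkm, Pfkp and Pgam1). In these fits the lone si-Atad2 library was assumed to vary like the others, and 7.03% and 18.5% of all genes passed.

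The ratios were small and mostly below 0. The log2 ratio, taken as log2 of (si-Atad2 FPKM + 1) over (si-ctrl FPKM + 1) within a pair, had a median of -0.06 over the 34 genes, against -0.01 over all genes tested. With the values rescaled to TPM these medians were -0.03 and 0.02. In 20 of the 34 genes the ratio was under 0 in both pairs, beside 34.1% of all genes, and in 6 it was above 0 in both, beside 28.3%. It was above 0 in pair 1 and under 0 in pair 2 for 7 genes (21.8% of all genes), and the reverse for 1 (15.8%). Both si-Atad2 libraries lay under both si-ctrl libraries for 16 genes, as for 26.9% of all genes, and above both for 5, as for 22% of all genes.

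The ratio moved with the level of a gene. The 478 genes whose mean si-ctrl level was at least 100 FPKM had a median log2 ratio of -0.06, and 61.7% of them were under 0 in both pairs, while the 10616 genes under 100 FPKM had a median of -0.01 and 32.9% were under 0 in both. Of the 34 genes, 11 reached 100 FPKM, and 9 of those 11 were under 0 in both pairs, with a median of -0.07. The other 23 had a median of -0.04, and 11 of them were under 0 in both pairs. The part of the level in the ratios of the glycolytic genes was not tested.

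**Figure D1:**
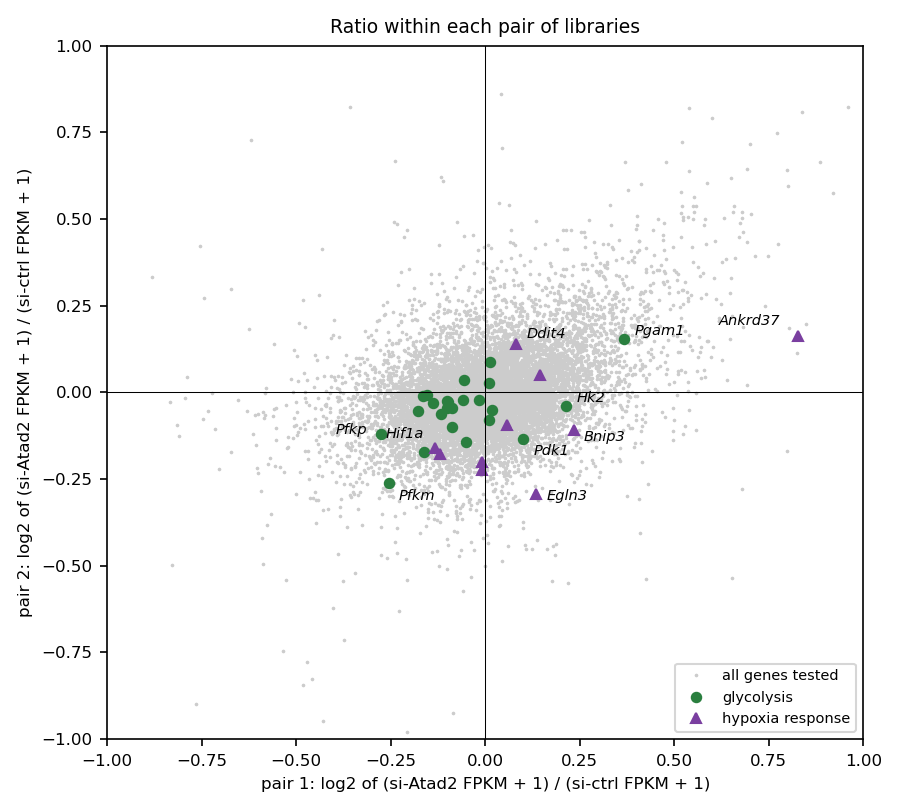
Log2 ratio between the libraries of pair 1 (si-Atad2 to si-ctrl, horizontal axis) and of pair 2 (vertical axis), on the log2(FPKM + 1) scale, for each of the 24 glycolysis genes (green circles), the 10 hypoxia response genes (purple triangles) and all genes tested (grey; 11 genes beyond the axes are not drawn). Ankrd37 stands far to the right at 0.83 in pair 1 and 0.16 in pair 2, while 20 of the 34 genes lie below 0 on both axes.

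In the si-ctrl libraries the glycolysis genes spanned a wide range of levels. Ldha, which encodes the lactate dehydrogenase subunit that favours the making of lactate, was the most abundant by the rows summed. Only 10 of all genes tested exceeded the mean of Ldha. It was followed by Aldoa, the main aldolase, and their si-ctrl libraries overlapped (1061 and 1026 FPKM for Ldha, 1045 and 972 for Aldoa). Slc2a3, a high-affinity glucose transporter (924 and 913 FPKM), and Pkm, the pyruvate kinase gene (919 and 853), came next and also overlapped. Slc2a1, the widespread glucose transporter (616 and 611), and Tpi1, triosephosphate isomerase (506 and 491), followed without overlap. These 6 genes were among the 100 most abundant of all. The order leaves out a further Pkm row of 348 and 299 FPKM in si-ctrl 1 and 2. With that row added, Pkm would stand above Ldha.

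**Figure D2:**
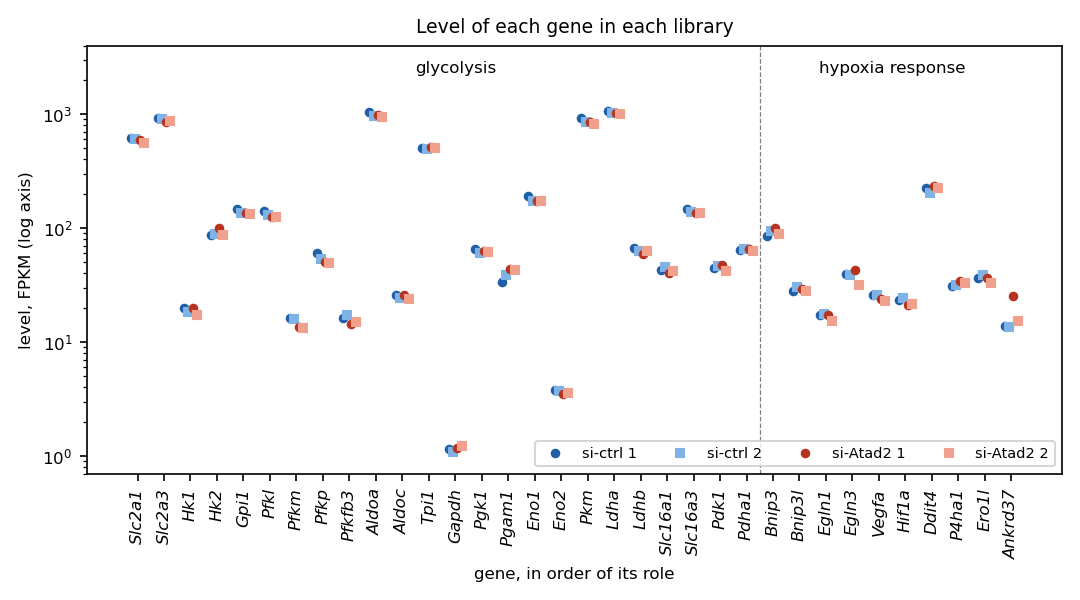
FPKM of each gene (vertical log axis) in si-ctrl 1 and 2 (blue) and si-Atad2 1 and 2 (red), with circles for pair 1 and squares for pair 2, the genes ordered by their role with the glycolysis genes left of the dashed line. Ldha, Aldoa, Slc2a3 and Pkm sit highest, with si-ctrl means of 886 to 1043 FPKM, Gapdh lowest at 1.12 FPKM, and for most genes the 4 points nearly coincide.

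The 4 membrane transporters were alike in their mean ratios. Slc2a1 had 616 FPKM in si-ctrl 1, 595 in si-Atad2 1, 611 in si-ctrl 2 and 553 in si-Atad2 2. Slc2a3 had 924, 853, 913 and 874 FPKM in the same order. Slc16a1, a monocarboxylate transporter that carries lactate, had 42.7, 40.1, 45.4 and 42.3, and Slc16a3, the related lactate exporter, had 148, 135, 138 and 135. For each of the 4 genes both si-Atad2 libraries were the lower ones, as for 26.9% of all genes. Of the 4, 3 reached 100 FPKM, a class in which 61.7% of all genes were under 0 in both pairs. In single pairs the log2 ratios ran from -0.14 (Slc2a1, pair 2) to -0.03 (Slc16a3, pair 2). The mean log2 ratios lay between -0.10 and -0.09, and none passed the test (limma adjusted p from 0.443 to 0.524).

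The first steps of glycolysis phosphorylate glucose and then fructose 6-phosphate. Hk2, a hexokinase induced in many fast-growing cells, had 86.9 FPKM in si-ctrl 1, 100.9 in si-Atad2 1, 88.8 in si-ctrl 2 and 86.4 in si-Atad2 2. It was thus high in si-Atad2 1 alone, with log2 ratios of 0.21 and -0.04. Hk1, the constitutive hexokinase, had 19.9, 20.03, 18.3 and 17.3 FPKM, and its groups overlapped too. Gpi1, which interconverts the hexose phosphates, had 146, 136, 135 and 133 FPKM (mean log2 ratio -0.06).

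Phosphofructokinase commits the sugar to glycolysis and has 3 genes. Pfkl, the liver type, was the most abundant of the rows that could be named, with 141 FPKM in si-ctrl 1, 125 in si-Atad2 1, 131 in si-ctrl 2 and 126 in si-Atad2 2 (mean log2 ratio -0.12, limma adjusted p = 0.395). Pfkm, the muscle type, had 16.2, 13.4, 16.1 and 13.2 FPKM. Here both pairs gave nearly the same ratio, -0.26 and -0.26, the 2 si-ctrl libraries differed by only -0.01, and the gene did not pass over all genes (SE 0.067, limma adjusted p = 0.108, unadjusted p = 0.00336).

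Pfkp, the platelet type, had 61.1, 50.3, 54.1 and 49.8 FPKM (mean log2 ratio -0.20, limma adjusted p = 0.186), a value that is uncertain. It rests on 2 rows whose lengths match short transcripts of the gene. The row of 1725 bases had 38.2, 37.8, 39.0 and 41.8 FPKM, while the row of 930 bases had 22.9, 12.5, 15.1 and 7.96, so the difference lay in the shorter row. A further 5 rows of the locus, with a summed si-ctrl mean of 199 FPKM, could not be assigned between Pfkp and its neighbour Pitrm1, and the most abundant of them, of 3986 bases, had 126, 124, 128 and 126 FPKM. Pfkfb3, which makes the activator of phosphofructokinase and is itself induced by hypoxia, had 16.2, 14.3, 17.1 and 15.1 FPKM. Both of its si-Atad2 libraries were lower (mean log2 ratio -0.17, SE 0.066, limma adjusted p = 0.27).

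Of the middle steps, that of aldolase had 1 dominant gene by the rows summed. Aldoa had 1045 FPKM in si-ctrl 1, 976 in si-Atad2 1, 972 in si-ctrl 2 and 953 in si-Atad2 2, and Aldoc, the brain type, had 26.0, 25.7, 24.3 and 23.9. Both overlapped between groups. Tpi1 had 506, 510, 491 and 500 FPKM, a mean log2 ratio of 0.02. Pgk1, phosphoglycerate kinase, had 65.4, 62.9, 60.5 and 62.1 FPKM and was the 1 gene with a ratio under 0 in pair 1 and above 0 in pair 2.

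Pgam1, the phosphoglycerate mutase gene on chr19, had 33.5 FPKM in si-ctrl 1, 43.5 in si-Atad2 1, 38.6 in si-ctrl 2 and 43.0 in si-Atad2 2. It was the only glycolytic enzyme with a mean log2 ratio above 0.1 (0.37 in pair 1, 0.15 in pair 2, mean 0.26, SE 0.069). The si-ctrl libraries differed by 0.20 on the same scale, more than in any other of the 34 genes, and the limma adjusted p was 0.117.

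Enolase makes phosphoenolpyruvate, and pyruvate kinase turns it into pyruvate. Eno1 had 192, 172, 172 and 171 FPKM, so that si-ctrl 1 alone was high. Eno2, the neuronal enolase, had 3.80, 3.52, 3.74 and 3.59. Pkm had 919, 856, 853 and 826 FPKM, and its groups overlapped (mean log2 ratio -0.07, limma adjusted p = 0.551). One further Pkm row, of 1289 bases, had 348, 296, 299 and 295 FPKM. It was not summed because the authors' program had not marked it as OK in all libraries.

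For pyruvate itself, Ldha had 1061, 1019, 1026 and 1010 FPKM and Ldhb, the subunit favouring pyruvate, had 66.8, 59.6, 63.0 and 62.5. In both genes the si-Atad2 libraries were the lower ones, as for 26.9% of all genes, with mean log2 ratios of -0.04 and -0.09. For Ldhb the difference lay in pair 1, with log2 ratios of -0.16 in pair 1 and -0.01 in pair 2. Pdk1, the kinase that shuts pyruvate dehydrogenase, had 44.7, 47.96, 46.2 and 42.1 FPKM, above its control in pair 1 and under it in pair 2. Pdha1, a subunit of pyruvate dehydrogenase, had 64.6, 65.4, 65.4 and 63.0. In both Pdk1 and Pdha1 the groups overlapped (limma adjusted p of 0.936 and 0.918).

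Within related genes the share of each changed little. Hk2 made up 81.4% of the summed FPKM of Hk1 and Hk2 in si-ctrl 1 and 82.9% in si-ctrl 2, and 83.4% and 83.3% in si-Atad2 1 and 2. Pfkl made up 89.7% and 89.1% of Pfkl and Pfkm in the si-ctrl libraries and 90.3% and 90.5% in the si-Atad2 libraries. Ldha held 94.1% to 94.5% of Ldha and Ldhb, Aldoa 97.4% to 97.6% of Aldoa and Aldoc, and Eno1 97.9% to 98.1% of Eno1 and Eno2 over the 4 libraries. Slc2a3 held 58.9% to 61.3% of the glucose transporters and Slc16a3 75.2% to 77.7% of the lactate transporters. Of these shares, those of Hk2 and Pfkl were higher in both si-Atad2 libraries than in both si-ctrl libraries, and that of Aldoa was lower. The Hk2 share differed more between the 2 si-ctrl libraries than within pair 2. The shares were not tested, and how often such an order arises in other sets of genes was not computed.

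**Figure D3:**
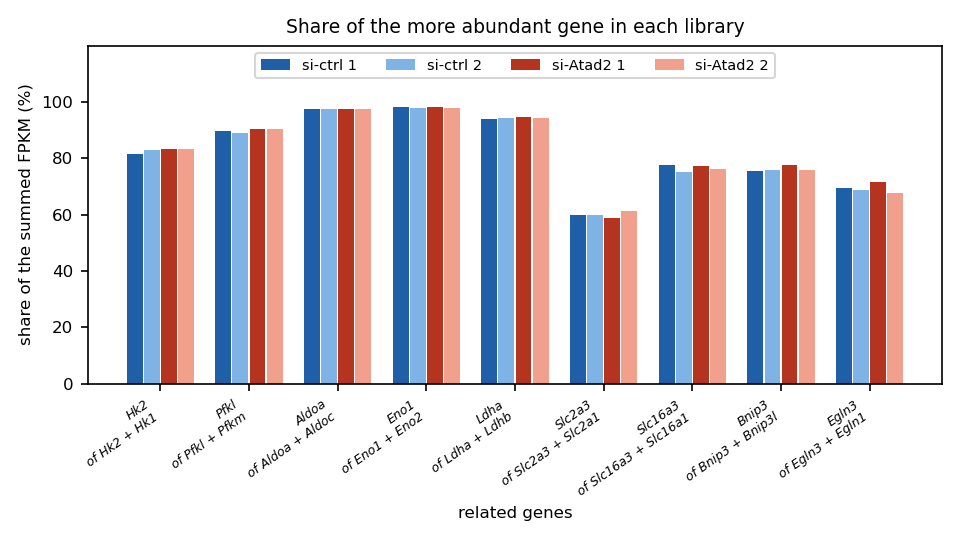
Share of the more abundant gene in the summed FPKM of each set of 2 related genes (bars from 0, in percent), in si-ctrl 1 and 2 (blue) and si-Atad2 1 and 2 (red). The shares run from 58.9% (Slc2a3, in si-Atad2 1) to 98.1% (Eno1, in si-ctrl 1), and the 4 bars of a set differ little.

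Gapdh, the gene of glyceraldehyde 3-phosphate dehydrogenase and a common reference gene, was listed at only 1.15 FPKM in si-ctrl 1, 1.17 in si-Atad2 1, 1.10 in si-ctrl 2 and 1.23 in si-Atad2 2. The authors' 95% interval for si-ctrl 1 ran from 0.871 to 1.43 FPKM. Its neighbours in the chain were far above this, with si-ctrl means of 498 FPKM for Tpi1 and 62.9 for Pgk1. GENCODE lists 245 processed copies of Gapdh in the mouse genome, of which 68 match its coding sequence at 95% identity or more. Of the 1224 windows of 50 bases in the Gapdh transcript, 90.4% occur unchanged in at least 1 copy, and the median window occurs in 34 of them. The stretch shared most widely, shown for what a short read from this gene can look like, lies in exon 4 of 7 of the gene at chr6:125162898-125162947 (GRCm38, minus strand, coding) and is held unchanged by 80 of the 245 copies.

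Gapdh coding stretch: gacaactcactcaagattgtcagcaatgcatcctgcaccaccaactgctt

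Copies were fewer for the other genes, of which 12 have at least 1. Ldha has 23, and Aldoa, Eno1 and Pkm have 7 each. The share of 50-base windows held by a copy was 68% for Pgk1, 52.8% for Eno1, 41.5% for Pgam1, 30.3% for Pkm and 16.6% for Ldha. None of the hypoxia response genes other than Bnip3 (18.9%) and Bnip3l (25.1%) had a copy. For some genes more windows were shared once the transcripts of every other gene were counted. The share was then 72.2% for Eno1, 62.4% for Bnip3, 34.4% for Pkm and 17.1% for Pfkp. It was 16.9% for Pdha1, 11.4% for Ankrd37 and 7.3% for Hif1a, and it stayed the same for Gapdh, Pgk1, Pgam1, Ldha and Bnip3l. How reads with several matches were assigned is not given in the sources used here, and the part of shared sequence in these levels was not tested. Of the rows in the tables, 6 lie at Gapdh copies and 1 at a Pdha1 copy, and adding them to these genes left the number of the 34 genes passing the test at 0.

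**Figure D4:**
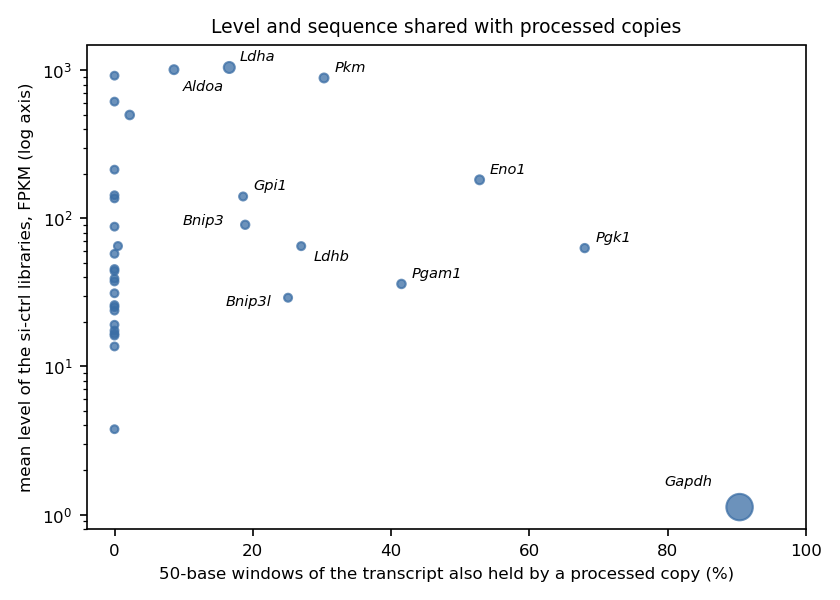
Mean FPKM of the si-ctrl libraries (vertical log axis) against the share of a gene's 50-base windows that also occur in its processed copies (horizontal axis, in percent), for the 34 genes, with larger points for more copies. Gapdh stands alone at 90.4% and the lowest level, while Ldha, Aldoa and Pkm have 886 to 1043 FPKM at 30.3% or less.

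Among the hypoxia response genes the regulators came first. Hif1a had 23.3 FPKM in si-ctrl 1, 21.1 in si-Atad2 1, 24.4 in si-ctrl 2 and 21.7 in si-Atad2 2. Both si-Atad2 libraries were lower, by much the same amount (log2 ratios of -0.13 and -0.16, SE of the mean 0.064, limma adjusted p = 0.31). Egln1, the main prolyl hydroxylase that marks HIF for degradation, had 17.3, 17.1, 17.7 and 15.2 FPKM. Egln3, its hypoxia-induced relative, had 39.3, 43.2, 39.0 and 31.7. The 2 si-ctrl libraries of Egln3 were level, si-Atad2 1 was higher and si-Atad2 2 lower (log2 ratios of 0.13 and -0.29), so that its mean ratio of -0.08 describes neither pair.

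The targets did not move together. Vegfa, the angiogenic growth factor, had 25.8, 23.7, 26.1 and 23.0 FPKM, lower in both si-Atad2 libraries (mean log2 ratio -0.15, SE 0.064, limma adjusted p = 0.304). Ero1l, an oxidase of the endoplasmic reticulum, had 36.5, 36.2, 38.5 and 32.8, also with both si-Atad2 libraries lower (-0.12). Ddit4, an inhibitor of mTORC1 signalling, had 223, 236, 203 and 224 FPKM, with both si-Atad2 libraries above both controls (mean log2 ratio 0.11, SE 0.055, limma adjusted p = 0.389). P4ha1, a collagen prolyl hydroxylase, had 30.8, 34.2, 31.6 and 32.7 (0.10). Much of this rise lay in a short row of 359 bases, with 6.03, 8.36, 5.49 and 7.93 FPKM. Of its 2 rows of 4043 bases, one had 10.5, 11.7, 12.15 and 12.3 and the other 14.3, 14.1, 13.9 and 12.5. With rows named by length alone its mean log2 ratio was -0.01. Bnip3 and Bnip3l, which mark mitochondria for mitophagy, had 85.7, 100.9, 95.2 and 88.2 FPKM and 27.9, 29.1, 30.3 and 28.3 FPKM, and each was above its control in pair 1 and under it in pair 2.

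Ankrd37, a small ankyrin-repeat gene induced by HIF-1, had the largest ratio of the 34 genes. It stood at 13.8 FPKM in si-ctrl 1, 25.2 in si-Atad2 1, 13.5 in si-ctrl 2 and 15.3 in si-Atad2 2. The control libraries were level and both si-Atad2 libraries higher, but si-Atad2 1 far more so. On the log2(FPKM + 1) scale, pair 1 gave 0.83 and pair 2 gave 0.16 (mean 0.50, SE 0.126, limma adjusted p = 0.106). The 2 si-Atad2 libraries differed by -0.69, the most of any of the 34 genes, and in the tables the gene is a single row of 904 bases named by its nearest length.

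The 10 hypoxia response genes had a median log2 ratio of 0.07 for pair 1 and of -0.14 for pair 2. Over the 24 glycolysis genes it was -0.09 and -0.04, and over all genes tested 0.0001 and -0.02. Over the 478 genes of at least 100 FPKM it was -0.07 and -0.05. Of the glycolysis genes 10 reached that level, and of the hypoxia response genes 1. The part of the level in the difference between the roles was not tested. Of the 10 hypoxia response genes, 4 were under 0 in both pairs (34.1% of all genes) and 3 were above 0 in both (28.3%). A further 3 were above 0 in pair 1 alone (21.8%).

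The upstream sequences of the 32 genes with a RefSeq entry (GRCm38.p6) were searched for the HIF core, spelled ACGTG or GCGTG on either strand. The window was the 250 bases before the first listed transcription start of each gene. Further starts of some genes were not searched (Pfkm has 4 listed, Vegfa and Pkm 2 each). The palindrome CACGTG, which is also the E-box of other factors, reads as a match on both strands. At least 1 match was found for 25 of the 32 genes (78.1%), against 38.6% of 27025 genes in the table. Base composition moved with this, since the median GC content was 63.4% for these genes and 52% for all. Among promoters of 60% GC or more, the core was found in 18 of 19 of these genes and in 64.2% of all genes, and the part of GC content in the difference was not tested. By role, 8 of 9 hypoxia response genes and 17 of 23 glycolysis genes held a match, and CACGTG was present in 5 of the 32 genes and in 6.05% of all. A match is only a description of the letters and no evidence of binding.

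**Figure D5:**
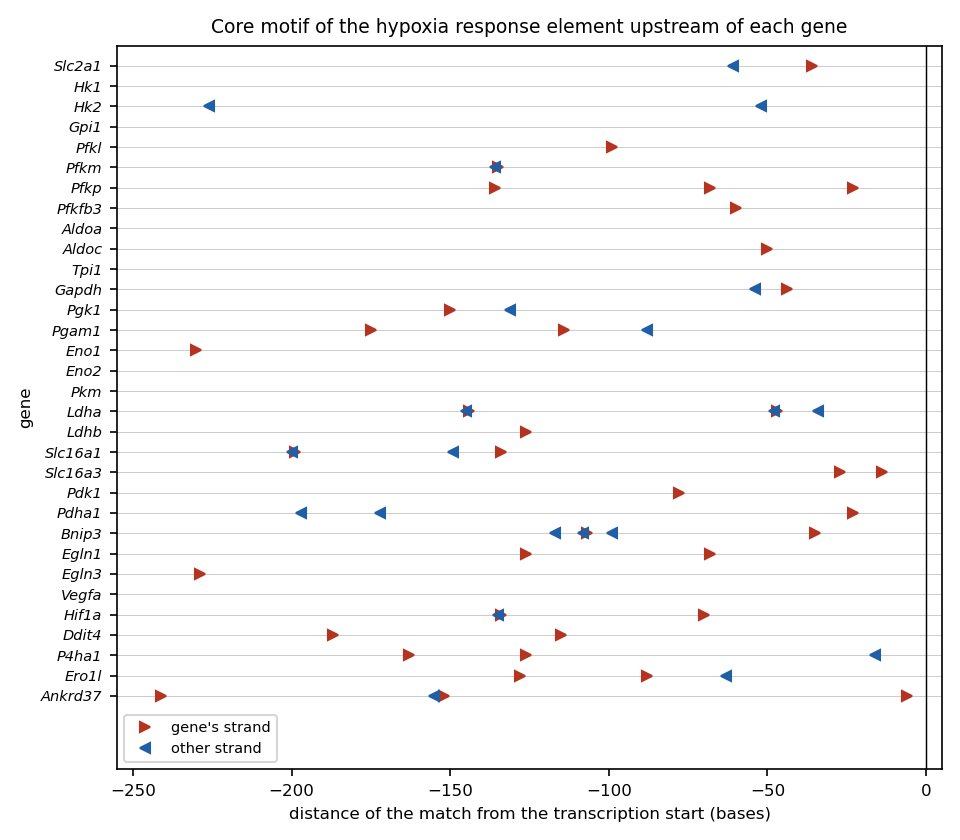
Position of each match to ACGTG or GCGTG in the 250 bases before the first listed transcription start (horizontal axis, bases from the start) for the 32 genes (rows). Red triangles mark the strand of the gene and blue ones the other strand. Overlapping red and blue triangles are mostly CACGTG, and 7 genes, among them Vegfa and Pkm, have no match in this window.

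Shown are the 250 upstream bases of the 2 genes with the highest ratios, Ankrd37 and Pgam1, and of the 2 genes with the most matches, Ldha and Bnip3, with matches in capitals and each sequence on the strand of its gene. They lie at chr8:45999851-46000100 on the minus strand (Ankrd37), chr19:41911621-41911870 on the plus strand (Pgam1), chr7:46845554-46845803 on the plus strand (Ldha) and chr7:138909507-138909756 on the minus strand (Bnip3). All 4 hold several matches. The mean log2 ratios were 0.50 for Ankrd37, 0.26 for Pgam1, 0.06 for Bnip3 and -0.04 for Ldha. Since the 4 genes were picked by ratio or by number of matches, they cannot relate the one to the other, and such a relation was not tested.

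Ankrd37 upstream: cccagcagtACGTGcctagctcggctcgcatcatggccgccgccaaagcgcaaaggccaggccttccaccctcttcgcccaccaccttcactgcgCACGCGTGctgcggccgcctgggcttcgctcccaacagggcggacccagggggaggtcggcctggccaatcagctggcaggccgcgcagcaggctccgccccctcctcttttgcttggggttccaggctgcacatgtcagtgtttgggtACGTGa
Pgam1 upstream: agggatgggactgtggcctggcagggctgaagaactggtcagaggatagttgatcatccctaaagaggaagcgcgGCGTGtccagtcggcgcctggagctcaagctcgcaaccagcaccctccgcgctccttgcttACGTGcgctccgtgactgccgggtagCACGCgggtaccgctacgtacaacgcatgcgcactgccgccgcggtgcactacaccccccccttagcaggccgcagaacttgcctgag
Ldha upstream: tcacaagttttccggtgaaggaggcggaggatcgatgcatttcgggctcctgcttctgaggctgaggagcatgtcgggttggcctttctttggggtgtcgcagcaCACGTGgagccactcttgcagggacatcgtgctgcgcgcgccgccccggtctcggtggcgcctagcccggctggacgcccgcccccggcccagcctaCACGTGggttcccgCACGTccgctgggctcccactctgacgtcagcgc
Bnip3 upstream: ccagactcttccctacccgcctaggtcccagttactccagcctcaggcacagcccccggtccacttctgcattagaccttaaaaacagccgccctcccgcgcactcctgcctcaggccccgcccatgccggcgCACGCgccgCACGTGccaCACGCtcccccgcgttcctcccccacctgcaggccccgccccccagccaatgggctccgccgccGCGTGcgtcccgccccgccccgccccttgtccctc

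The other genes of these pathways were counted in 5 further lists, of 100 genes in all. Of these 95 were listed and 78 tested. In either direction 1 passed the test, beside 1.38% of all genes, and it lay on the lower side (0.288% of all genes). That gene was Adm, which encodes the vasodilator peptide adrenomedullin and is induced by HIF. Adm had 14.7 FPKM in si-ctrl 1, 10.7 in si-Atad2 1, 13.7 in si-ctrl 2 and 10.6 in si-Atad2 2. Its level fell by 0.38 on the log2(FPKM + 1) scale (SE 0.070, limma adjusted p = 0.0332), with both si-Atad2 libraries well under both controls. The adjusted p of Adm ran from 9.37e-06 to 0.642 over the other settings, and the call was lost when genes of every level or rows of every length were kept, when the GC trend or the level trend of the variances was taken out, and when either si-ctrl library was left out.

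The rest of these lists gave 0 calls by limma, and 14 of the 78 tested genes had an unadjusted p under 0.05, Adm included, beside 15.5% of all genes. Among 30 tested genes of the hypoxia response the median log2 ratio was -0.04, and the highest ratio was that of Narf, named after its values were seen, with 12.1, 15.7, 11.5 and 13.3 FPKM (0.27, adjusted p = 0.117). Among the 24 of glycolysis and pyruvate the median was -0.05, with Tigar, a fructose bisphosphatase that restrains glycolysis, lowest at 25.9, 23.3, 26.4 and 21.7 FPKM (-0.21, adjusted p = 0.174) and Pfkfb2, a relative of Pfkfb3, highest at 1.39, 1.82, 1.22 and 1.33 FPKM (0.15).

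The 7 tested genes of the pentose phosphate path, which branches off after hexokinase, had a median log2 ratio of -0.04. Tkt, transketolase, was lowest with 131, 107, 122 and 111 FPKM (-0.21, adjusted p = 0.14), and Pgd, which makes NADPH, was highest with 52.4, 55.7, 51.2 and 58.1 FPKM (0.13, adjusted p = 0.336). The 4 of gluconeogenesis had ratios between -0.11 (G6pc3, a glucose 6-phosphatase) and 0.06 (Fbp2, the muscle fructose bisphosphatase). Of the 14 regulators of HIF, Siah2, a ubiquitin ligase acting on Egln proteins, was lowest with 4.84, 4.14, 5.12 and 4.05 FPKM (-0.23, adjusted p = 0.202), and Hif1an, the asparagine hydroxylase that restrains HIF, was highest with 12.2, 15.0, 11.8 and 13.4 FPKM (0.22, adjusted p = 0.174). In each gene named from these lists other than Fbp2, both pairs gave a ratio of the same sign.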

How the data were processed

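RNA-seq levels of 4 libraries were deposited as FPKM per UCSC transcript cluster, computed by the authors with Cuffdiff after TopHat alignment (versions not given in the sources used here), in a separate run for each pair. The submitters' processing notes name mm9, yet the loci in the tables fitted GRCm38 transcripts, and 58.5% of 26306 loci had an end exactly at one. The deposited tables of the authors' own comparisons hold their fold changes and p-values and were not used. Counts were not among the files, so depth is unknown and no count test was run.

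Rows were named from GENCODE vM21 by locus and the deposited transcript length: a length within 3 bases of a transcript, else the only coding gene at the locus, else the nearest length within 5% with the next gene at least 3 times farther. This named 14810, 29280 and 3598 of 59120 rows and left 11432 without a name. Rows under 200 bases, or not marked as OK by Cuffdiff in all libraries, were dropped (6632 and 720 rows). The FPKM of the other rows of a gene were summed.

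Genes with a mean of at least 1 FPKM entered limma 3.58.1 (R 4.3.3) on the 2 within-pair differences of log2(FPKM + 1), with variances moderated along the mean level and Benjamini-Hochberg adjustment over all genes. This scale understates the change of genes of low level. The replicate number is the block because the authors quantified same-numbered libraries together; in the values, the departure of a library from the mean of its group correlated at -0.02 with that of the library sharing its number. The fit was checked on artificial data with known changes. Processed copies were GENCODE processed pseudogenes matching the coding sequence at 85% identity over 50% of its length (blastn 2.17.0), and a window counted as shared when its 50 bases occurred unchanged on either strand.

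All 34 genes are given in every library. The rule for the genes to be so described named Atad2, the 6 highest and 6 lowest ratios of one sign in both pairs, isozymes, Hif1a, Vegfa, Pdk1, Pdha1 and Gapdh, and of each further list the genes that passed or the highest and lowest; Gpi1, Pgk1 and Pkm lay outside it and were added after their values were seen. The genes and lists were chosen with earlier results of these data known.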

Additional observations from a re-analysis of the deposited data

How the results depend on the processing

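Of the 34 genes, 0 passed in the main fit with the replicate block, and also 0 without the block, which changed no call of Atad2 or of the further pathway genes, with 135 genes passing in all against 153. The count of all genes passing was 0 with no minimum level or without either si-ctrl library, 12 with rows of every length, 31 with rows named by length alone (15 of the 34 genes tested), 83 with the GC trend removed, 246 on the TPM scale 780 without si-Atad2 1, 2050 without si-Atad2 2 (7.03% and 18.5% of all genes) and 319 at an adjusted p threshold of 0.1. The Atad2 log2 ratio was -1.53 with no minimum level but no longer passed. Leaving out libraries 1 at a time, or a pair, gave an Atad2 log2 ratio between -1.70 and -1.36, a count of the 34 genes passing of 0 to 6, a count of the further pathway genes passing of 0 to 14, and a median log2 ratio of the 34 genes between -0.0818 and -0.0289. That ratio of Atad2 did not pass without si-ctrl 1 or si-ctrl 2 (limma adjusted p of 0.115 and 0.101). The cause was not tested.

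Among the further pathway genes the count was 0, not 1, with no minimum level, with rows of every length, with rows named by length alone (where Adm was not among the genes), with the GC trend removed and without the level trend. The median log2 ratio of the 34 genes was -0.0690 with a pseudocount of 0.1, -0.0687 with a minimum of 5 FPKM, -0.0343 on the TPM scale, -0.0583 with median-of-ratios scaling, -0.0814 with rows named by length alone and -0.0494 with the GC trend removed. Signs of small ratios turned on the TPM scale for Aldoc (0.0153), Pgk1 (0.0248), Pdk1 (0.0172), Pdha1 (0.0167) and Bnip3l (0.0161), and with rows named by length alone for Eno1 (0.0950), Ldha (0.130) and P4ha1 (-0.00698). Leaving out a library turned the sign of such genes, with log2 ratios then of -0.136 to 0.0659 for Hk1, -0.0390 to 0.213 for Hk2, -0.0663 to 0.0296 for Aldoc, -0.00249 to 0.0405 for Tpi1, -0.0639 to 0.0448 for Pgk1, -0.133 to 0.0997 for Pdk1, -0.0521 to 0.0170 for Pdha1, -0.110 to 0.234 for Bnip3, -0.0932 to 0.0576 for Bnip3l and -0.297 to 0.139 for Egln3. A setting with rows of any status, which adds a Pkm row, was chosen after seeing the data and changed no call. Depth is unknown, and Gapdh at 1.12 FPKM and Eno2 at 3.77 FPKM have the lowest levels of the 34 genes, where the pseudocount weighs most.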
